A study of Mus musculus with 3 samples.

Results

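Short insertions and deletions (indels) on chromosomes 1 to 19 were compared between 2 derivatives of MB49, a bladder cancer cell line of the mouse, one labelled Y negative and one labelled Y positive. The members of the comparison were 4470 of the 22791 distinct autosomal indels listed in any library, and of 23347 on all chromosomes. They comprised 2603 shared sites, each with 1 alternative allele and at least 20 reads in both derivatives, 944 entries listed in Y negative and not in Y positive, and 923 entries listed in Y positive and not in Y negative, again at 20 reads or more. Exome libraries were made from genomic DNA of the unmodified parental MB49 line, the Y positive derivative and the Y negative derivative, with 1 library each, and were read as paired ends of 150 bases. All 3 lines were cultured MB49 cells in the same serum-containing medium, and no treatment was labelled. How the derivatives were made, and whether each is 1 clone, was not given in the sources used here. Groups followed the genotype labels. The description of the Y positive sample reads MBN and that of the Y negative sample MBP, which would be the other way round if N and P stood for negative and positive. The lists themselves held 9 entries on the Y chromosome in the Y positive library, 4 in the parental library, none of those 4 with 20 reads, and 0 in the Y negative library.

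An indel adds or removes bases relative to the reference genome, and within coding sequence it shifts the reading frame unless its length is a multiple of 3. The allele fraction, the reads that carry the indel over all reads at the place, lies near the middle of its range where 1 of a pair of chromosome copies carries it and near 1 where all copies do. It departs from both in cell lines with uneven chromosome numbers or in mixtures of cells. Runs of a single base, mostly A or T, gain and lose bases by slippage of polymerases both in cells and during library amplification, so reads over them often differ in length. MB49 came from the bladder of a male mouse, and cells of bladder tumours of males are known to lose the Y chromosome.

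The indels that carry the coding results below are shown first, as deposited, on the forward strand and from 5′ to 3′. The lower-case letter is the reference base before the indel, and the capitals are the bases deleted or inserted. Coordinates are those of the deposited lists, which run past the ends of the last mm10 genes (position 197068016 on chromosome 1 against 195291439, and 152408092 on chromosome 7 against 145324059). The only other build in the submitters' processing notes is mm9. The first pair are different deletions at 1 coding place, the AA deletion listed in Y negative and the A deletion in Y positive.
chr7:51200694-51200695, deletion in Y negative: gAA
chr7:51200694-51200694, deletion in Y positive: gA
The next 3 deletions lie close together in coding sequence and were listed in Y positive and in the parental library.
chr8:27271296-27271296, deletion: tA
chr8:27271329-27271330, deletion: cAG
chr8:27271332-27271342, deletion: cATCTGCTCGGA
A second group of neighbours listed in Y positive and parental alone removed 24 bases in all.
chr10:45067675-45067675, deletion: aG
chr10:45067677-45067699, deletion: aTGCACAAAGGCGAAAAATTCCAG
A coding insertion of 6 bases was listed in Y negative alone, at the highest allele fraction of the coding entries found in that list alone.
chr16:32752958-32752958, insertion: tCATTGA
The last 4 are shared by both derivatives, lie in the transcript ENSMUST00000073543, and were among the 10 coding sites whose allele fraction differed most.
chr11:50861907-50861907, deletion: gT
chr11:50861909-50861909, insertion: tG
chr11:50862531-50862531, insertion: cA
chr11:50862537-50862537, deletion: aC

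Most indels listed in both derivatives were carried by nearly the same share of reads in each. The median size of the allele fraction difference over the 2603 shared sites was 0.0335, with 90% of sites below 0.156 and 99% below 0.338. The median depth at these sites was 49 reads in Y negative and 51 in Y positive. The deposited genotype, homozygous or heterozygous for the indel, was the same at 2532 sites, or 97.3% (exact Clopper-Pearson 95% interval 96.6 to 97.9%). Of the same genotypes, 1626 were heterozygous in both derivatives and 906 homozygous in both, and 704 sites had no reference read in either. Over the 1626 the median size of the difference was 0.0628, with 90% of sites below 0.188, and it reached 0.2 at 134 (8.24%). Over the 906 the median was 0 and 0 sites reached 0.2, so the figures over all shared sites are smaller than those of the heterozygous sites. The parental library listed 2348 of the shared sites, 90.2%. Reads come without molecular identifiers, so every interval here covers counting error only, and with 1 library a line no difference has a replicate check.

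A difference in allele fraction of at least 0.2 was present at 147 shared sites, 5.65% of them. The indel was carried by more of the reads in Y negative at 69 (2.65%) and by fewer at 78 (3%). The counts fell to 49 sites at a difference of 0.3, 12 at 0.4 and 3 at 0.5, and at all 3 of the last the fraction was lower in Y negative. Just outside the limit of 0.2 lay an intronic A deletion at 11:99248448, with 55 of 92 reads in Y negative against 41 of 103 in Y positive. Just inside it lay a GG insertion between genes at 10:129979672, with 10 of 20 and 6 of 20 reads. An A deletion at 15:9555916 had 23 of 30 and 29 of 30 reads, and an AGA deletion at 11:109926354 had 14 of 20 and 11 of 22. These also differ by 0.2, but rounding in the computation placed them below the limit and outside the 147. Of the 147, 75 lay among 1245 sites in introns, 29 among 560 in introns of non-coding RNAs, 19 among 188 between genes and 0 among 133 in coding sequence. The limit was reached at 93 of 1269 indels of a single A or T, at 28 of 427 indels of a single G or C and at 5 of 264 indels of 5 or more bases. Deletions contributed 131 of 1888 and insertions 16 of 715. These kinds also differed in allele fraction. The median in Y negative was 0.545 for a single A or T, 0.765 for a single G or C and 1 for 5 or more bases. It was 0.559 for deletions and 0.952 for insertions. Of the 906 sites homozygous in both derivatives, 0 reached the limit. The part of genotype in the differences between kinds was not tested.

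**Figure D1:**
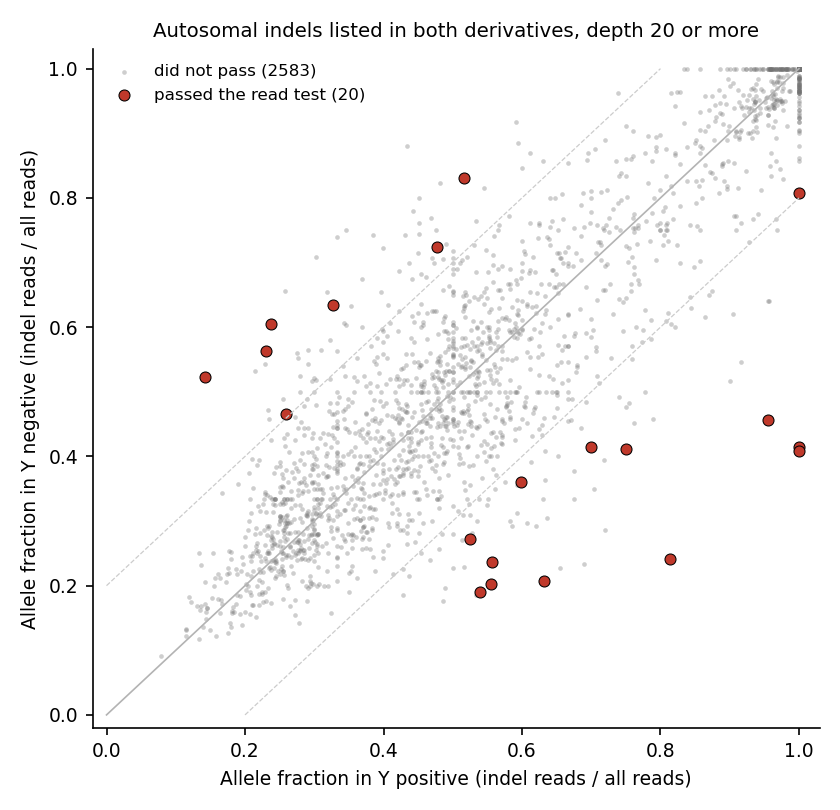
Allele fraction (indel reads over all reads) in Y negative on the vertical axis against Y positive on the horizontal axis, 1 point for each of the 2603 shared autosomal sites; the solid line marks equal fractions and the dashed lines a difference of 0.2. The 20 larger red points passed the per-site read test, 7 above the line of equal fractions and 13 below it.

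Reference and indel reads were then compared at each site by a two-sided Fisher exact test, adjusted by the Benjamini-Hochberg method over all 2603 sites at a threshold of 0.05. The test compares the reads of 2 libraries, not the conditions. At 20 sites, 0.768% of those tested, the allele fraction differed. It was higher in Y negative at 7 (0.269%) and lower at 13 (0.499%). Before adjustment, 162 of the 2603 sites had a p below the same threshold. The 20 sites lay on 12 chromosomes, and the sizes of their differences ran from 0.193 to 0.592 with a median of 0.336. None was in coding sequence, and 15 were in introns of coding or non-coding transcripts, which held 69.3% of all shared sites. Deletions made up 18 of the 20 and 72.5% of all shared sites, and single-base indels 19 of the 20 and 65.2%. Single-base A or T indels made up 14 of the 20, where they were 48.8% of all shared sites. Their part in the differences was not tested. Mapping quality, the aligner's confidence in where reads belong, was 60 in both derivatives at 15 of the 20 and at 2061 of all 2603.

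At 4 of the sites that differed, the Y positive library had no or almost no reference reads while Y negative was heterozygous. An A deletion at 16:29261083, in an intron of ENSMUST00000075806, was present in 73 of 179 reads in Y negative and in all 160 of 160 in Y positive, with 59 of 118 in parental. Its allele fraction was 0.408 (0.335 to 0.484) in Y negative and 1 (0.977 to 1) in Y positive, and its adjusted p, 4.41e-36 by the Fisher exact test, was the smallest of the 2603. Parental was nearer to Y negative there. A deletion of 1 base at 18:21247312, in an intron of ENSMUST00000082235, was present in 21 of 46 reads in Y negative against 42 of 44 in Y positive, with 33 of 48 in parental. An A deletion at 12:119279688, in an intron of ENSMUST00000084806, was present in 12 of 29 reads in Y negative against 24 of 24 in Y positive, with 14 of 18 in parental. These 2 were read to a much lower depth than 16:29261083, and their intervals are accordingly wider. The fourth was an A insertion next to ENSMUST00000054635 at 13:40383412, present in 67 of 83 reads in Y negative against 64 of 64 in Y positive, with 67 of 67 in parental. Here parental had the Y positive state, and all 16 reference reads of the 3 libraries came from Y negative.

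Among sites heterozygous in both derivatives, 9 had a lower allele fraction in Y negative. The deepest was a T deletion in an intron of ENSMUST00000063704 at 4:146886442, present in 38 of 200 reads in Y negative against 96 of 178 in Y positive, with 72 of 199 in parental (adjusted p = 1.60e-09, Fisher exact test). The 3 values are spaced apart, with parental between the derivatives. An A deletion in an intron of ENSMUST00000057784 at 8:41984710 had 14 of 58 reads in Y negative against 35 of 43 in Y positive, with 22 of 53 in parental, again in that order. So did a T deletion at 8:28563649 in an intron of ENSMUST00000081321, with 32 of 135, 54 of 97 and 43 of 112 reads.
In another set the parental fraction was close to that of Y negative and Y positive stood apart. A T deletion at 1:183682765 had 22 of 109 reads in Y negative against 55 of 99 in Y positive, with 20 of 93 in parental. A G deletion between genes at 3:98384074 had 34 of 125, 83 of 158 and 34 of 144 reads, a G deletion in a UTR of ENSMUST00000098496 at 3:154428932 had 23 of 56, 48 of 64 and 26 of 64, and a T deletion at 1:63598291 had 48 of 133, 64 of 107 and 50 of 127. The last 2 of the 9 were not listed in parental as a single allele: a T deletion at 5:97139212, with 11 of 53 reads in Y negative against 36 of 57 in Y positive, and a G deletion at 8:13579971, with 41 of 99 and 72 of 103.

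The 7 sites with a higher allele fraction in Y negative were all heterozygous in both derivatives. A G deletion between genes at 7:7230947 was present in 90 of 142 reads in Y negative against 65 of 199 in Y positive, with 100 of 158 in parental (adjusted p = 1.75e-05, Fisher exact test). A T insertion in an intron of ENSMUST00000045502 at 5:151128687 was read most deeply of the 20, being in 148 of 318 reads in Y negative against 77 of 297 in Y positive, with 155 of 341 in parental. In this pair Y negative and parental were alike and Y positive was low. The reverse, with Y negative apart from the other 2, was seen for a G deletion at 11:62887027 (43 of 71 reads in Y negative against 9 of 38 in Y positive, with 12 of 51 in parental), a T deletion at 5:97137579 (54 of 65, 31 of 60 and 35 of 71) and a CAA deletion at 3:93631067 (23 of 44, 6 of 42 and 11 of 48). An A deletion at 19:40076252 had 58 of 103, 18 of 78 and 38 of 88 reads, and a T deletion at 4:45286206 had 126 of 174, 64 of 134 and 90 of 166, with parental between the derivatives at both.

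Over the 17 of the 20 sites that parental listed as a single allele with at least 20 reads, its allele fraction was nearer to Y negative at 12 and nearer to Y positive at 5, and it lay between the derivatives at 12. The sites had been chosen for a difference between the derivatives, so these counts are a description. The 2 sites on chromosome 5 at 97137579 and 97139212 lie in introns of the same transcript, ENSMUST00000036019, and differed in opposite directions: the T deletion at the first was higher in Y negative and that at the second lower.

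**Figure D2:**
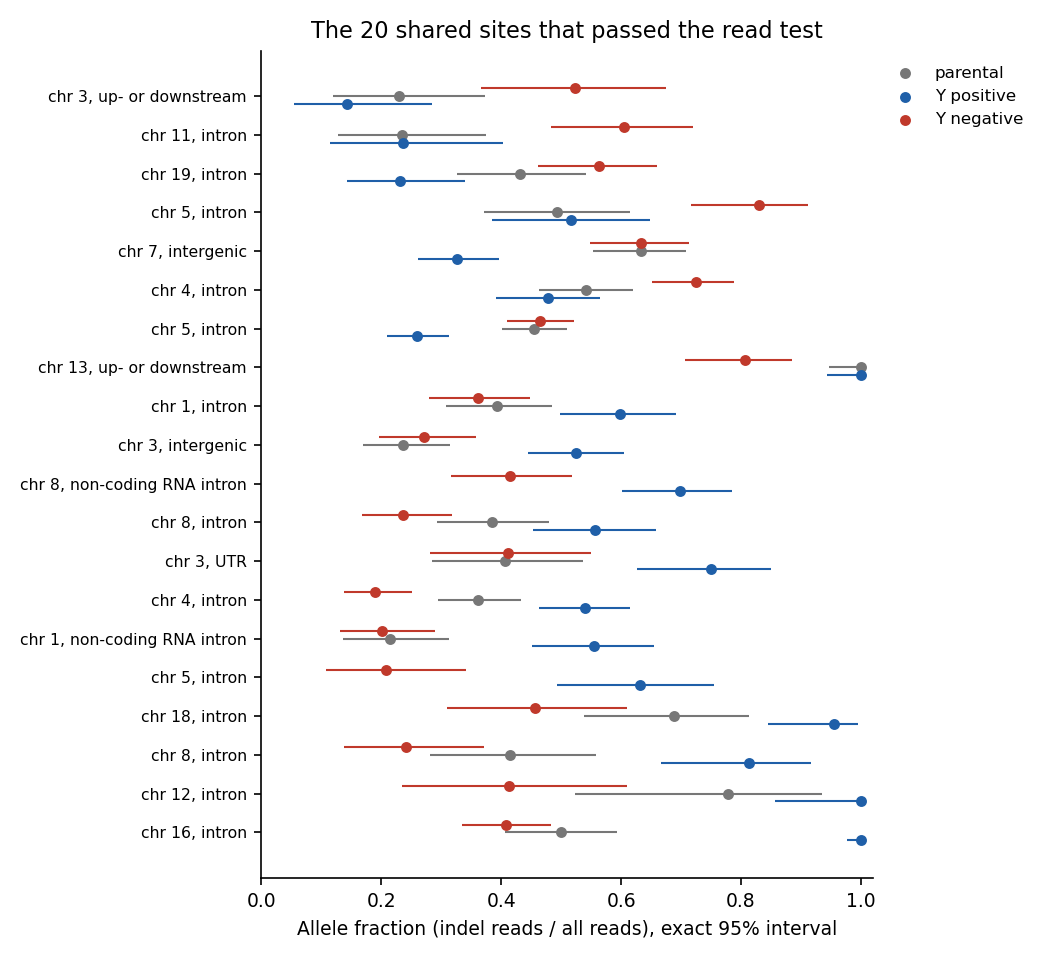
Allele fraction with its exact 95% interval in Y negative (red), Y positive (blue) and parental (grey) at the 20 shared sites that passed the read test, ordered from the largest rise to the largest fall in Y negative and labelled by chromosome and gene context; 2 sites have no parental point because that library did not list them as a single allele. At the bottom, on chromosome 16, Y positive stands at 1 while Y negative is at 0.408 and parental at 0.5.

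Large differences that did not pass the test came from sites of modest depth. The largest of these was a C deletion in an intron of ENSMUST00000111040 at 5:137869801, with 7 of 30 reads in Y negative against 20 of 29 in Y positive, with 14 of 35 in parental (adjusted p = 0.0688, Fisher exact test). A C deletion at 17:50308558 went the other way, with 22 of 25 reads in Y negative against 13 of 30 in Y positive, with 7 of 20 in parental (adjusted p = 0.0720, Fisher exact test). A T deletion in an intron of ENSMUST00000072947 at 7:6210173 had 34 of 48, 10 of 33 and 24 of 43 reads (adjusted p = 0.0649, Fisher exact test), and an A deletion at 13:12010489 had 10 of 44, 19 of 29 and 13 of 39 (adjusted p = 0.0620, Fisher exact test). The 10 largest of this kind were all single-base deletions outside coding sequence, 5 higher and 5 lower in Y negative.

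The deposited genotype differed at 71 shared sites. At 41 the indel was heterozygous in Y negative and homozygous in Y positive, and at 30 the reverse held. At most of these the fractions themselves were close, with median differences of 0.138 and 0.0942. The difference reached 0.3 at 8 sites, of which 7 were heterozygous in Y negative and homozygous in Y positive. Besides the 3 described above, they were single-base deletions at 8:119455142 (15 of 29 reads in Y negative against 27 of 30 in Y positive), 3:3642832 (12 of 22 and 22 of 24), 14:98300742 (16 of 25 and 22 of 23) and 5:104517688 (16 of 25 and 21 of 22). The one in the other direction was an 8-base deletion in an intron of ENSMUST00000124830 at 13:38269199, homozygous in Y negative with 22 of 24 reads, heterozygous in Y positive with 13 of 22, and homozygous in parental with 23 of 24.

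There were 6 runs of neighbouring shared sites that all differed by at least 0.2 in 1 direction, 4 of them of 2 sites and 2 of them of 3. Neighbours that moved together by less than 0.2 were not counted. Whether 6 is more or fewer than unrelated sites would give was not tested. The 3 sites between 2:181652695 and 2:181652728 span 33 bases and can lie on the same reads. They were an inserted C with 18 of 32 reads in Y negative against 13 of 39 in Y positive, an 11-base deletion with 14 of 27 and 10 of 33, and an AA deletion with 13 of 23 and 9 of 29, all higher in Y negative, and mapping quality there was below 51. None of the 3 passed the test. The other run of 3, from 3:93576757 to 3:93631148, spans 54391 bases and was also higher in Y negative at each site. It begins with a 57-base deletion carried by 25 of 46 reads in Y negative against 8 of 35 in Y positive, with 16 of 35 in parental. It ends with a C deletion carried by 12 of 23, 6 of 20 and 5 of 19, and includes the CAA deletion at 3:93631067, which passed the test. Mapping quality at the CAA deletion was 48.05 in Y negative and 50.81 in Y positive. Beside both runs Y positive listed indels that Y negative did not: 3 from 2:181652631, 3 from 3:93576747 and 2 from 3:93631073. Their part in the lower fractions of Y positive was not tested.

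Coding sequence held 133 of the shared sites, of which 101 were annotated as frameshifts and 30 as in-frame changes. The allele fractions of these sites were close in both derivatives, with a median difference of 0.0198 in size at median depths of 109 and 98 reads. Of the 133, 0 passed the read test, where the rate over all sites was 0.768%. A difference of 0.2 was reached at 0, where the rate over all sites was 5.65%. Over all shared sites the median depths were lower, at 49 and 51 reads. The rate of such differences was 2.41% over shared sites with at least 50 reads in both. The part of depth or genotype in the coding counts was not tested. The largest difference was at a CA deletion at 10:62025866, with 9 of 24 reads in Y negative against 8 of 39 in Y positive, which parental did not list as a single allele. A G deletion at 7:105343070 in ENSMUST00000098278 had 14 of 53, 26 of 60 and 20 of 56 reads in Y negative, Y positive and parental. A 17-base deletion at 8:42378924 in ENSMUST00000045199 was carried by 23 of 59, 23 of 85 and 20 of 64. The depth does not allow these to be told from equal fractions.

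The transcript ENSMUST00000073543 held 7 of the shared coding sites, more than any other, and their differences ran from -0.0935 to 0.140. The T deletion and the G insertion 2 bases apart at 11:50861907 and 11:50861909, printed above, were carried by 130 of 279 and 131 of 281 reads in Y negative, by 70 of 215 and 71 of 216 in Y positive, and by 114 of 268 and 116 of 270 in parental. The A insertion and the C deletion at 11:50862531 and 11:50862537 were carried by 100 of 260 and 96 of 258 reads in Y negative, 53 of 212 and 53 of 209 in Y positive, and 74 of 265 and 69 of 256 in parental. The members of each pair had nearly equal counts and can lie on the same reads. Each pair inserts as many bases as it deletes, while each member by itself was annotated as a frameshift. A further pair in the same transcript, a 2-base deletion at 11:50862212 and a 2-base insertion at 11:50862216, went the other way, with 49 of 249 and 50 of 250 reads in Y negative and 54 of 186 and 54 of 184 in Y positive. The smallest adjusted p among the first 4 was 0.147 (Fisher exact test).

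The chromosomes differed widely in how many shared sites were homozygous in both derivatives. On chromosome 3, 163 of 253 sites (64.4%, 58.2 to 70.3%) were homozygous for the indel in both, on chromosome 8 107 of 178 (60.1%), on chromosome 18 62 of 109 (56.9%), on chromosome 2 135 of 239 (56.5%) and on chromosome 11 125 of 250 (50%). On chromosome 19 only 4 of 79 were (5.06%, 1.40 to 12.5%), on chromosome 16 4 of 59 (6.78%) and on chromosome 12 5 of 52 (9.62%). Where a site was heterozygous in both, the median allele fraction of the chromosome in Y negative and Y positive differed by 0.0161 at the median over the 19 chromosomes and by at most 0.0819, on chromosome 18, where 39 sites were heterozygous in both. Chromosome 19 had the lowest median, at 0.348 in Y negative and 0.346 in Y positive over 74 sites, and 0.364 over the 58 of them that parental listed. Chromosome 5 followed, at 0.376 and 0.383 over 122 sites and 0.40 over 99 in parental. The intervals of the medians lay below 0.5 in both derivatives on these chromosomes and on chromosomes 4, 7 and 17. On chromosome 11 the medians were 0.570 and 0.513 over 117 sites.

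**Figure D3:**
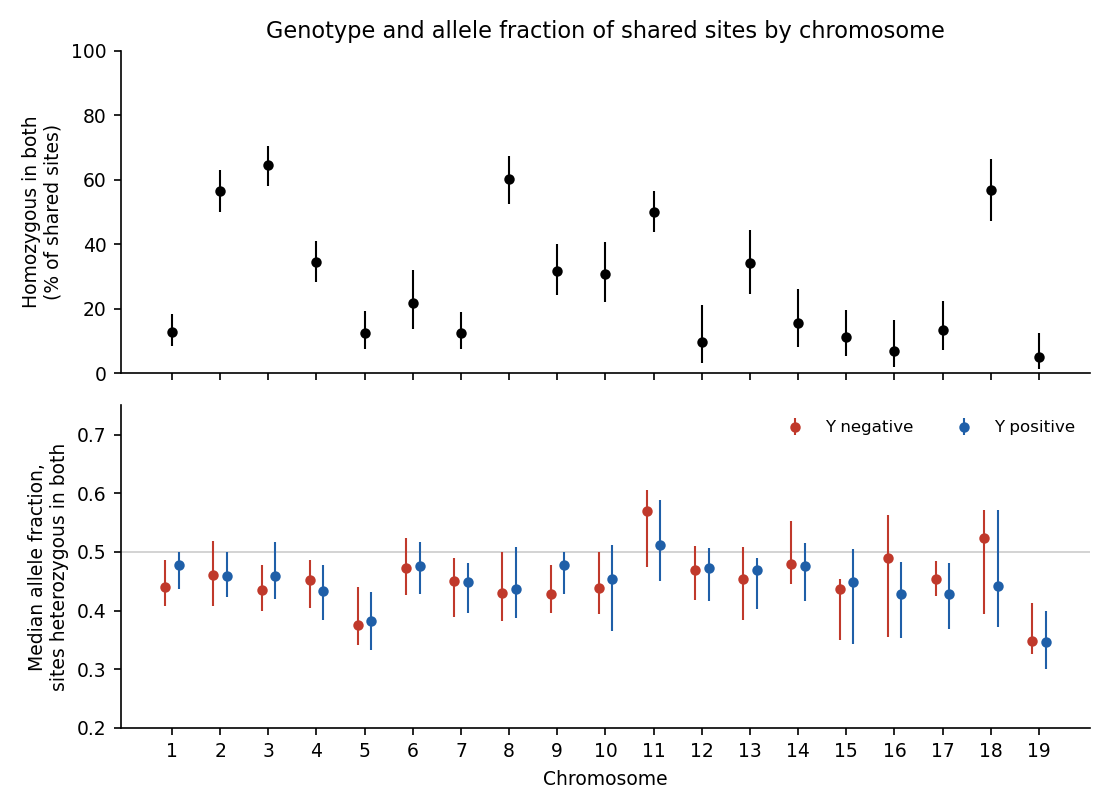
By chromosome, the share of shared sites homozygous for the indel in both derivatives with its exact 95% interval (upper panel), and the median allele fraction of sites heterozygous in both, in Y negative (red) and Y positive (blue), with exact order-statistic 95% intervals (lower panel). Chromosomes 2, 3, 8, 11 and 18 stand at 50% or more in the upper panel, and chromosome 19 is lowest in both panels, at 0.348 and 0.346 in the lower one.

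Read depth at the shared sites was close in both derivatives on each of the 19 autosomes. The log2 ratio of depths, Y negative over Y positive after adding 0.5 reads, had a median of 0.00 over all autosomes (0.00 to 0.02). Relative to it, the median of a chromosome ran from -0.10 on chromosome 7 (-0.14 to 0.00, 138 sites) to 0.07 on chromosome 13 (-0.04 to 0.12, 94 sites) and 0.07 on chromosome 17 (0.00 to 0.16, 89 sites). The ratios of 90% of sites lay between -0.57 and 0.51. A ratio of 1 or more in size was found at 10 sites, 6 lower and 4 higher in Y negative. These are depths at listed indels, not over all captured bases, and a place lost from a list contributed nothing.

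Each derivative had many entries that were not in the other's list. Of the 3720 Y negative entries with 1 alternative allele and 20 reads, 944 (25.4%) were listed in Y negative and not in Y positive, 158 were in Y positive below 20 reads and 15 were in a Y positive entry with 2 alternative alleles. Of 3813 Y positive entries 923 (24.2%) were not in the Y negative list, 272 were there below 20 reads and 15 were in a 2-allele entry. The lists give no reads at places that were not called, so an entry missing from a list does not show a reference genotype there. Entries listed alone were mostly of low allele fraction. The median was 0.30 in Y negative and 0.346 in Y positive, against 0.611 and 0.60 at the shared sites, and median depth was 39 and 35 reads. Genotypes were unlike, however: 34.8% of the shared sites were homozygous in both derivatives, while 96.8% and 96.3% of the entries listed alone were heterozygous. Among heterozygous entries listed alone the medians were 0.2965 and 0.333, against 0.448 and 0.45 at shared sites heterozygous in both. Deletions were 85.6% and 84.5% of the entries listed alone and 72.5% of the shared sites. Indels of a single A or T were 53.1% and 51.4% of them, and 2-base indels 27.6% and 31.9%.

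At a number of these places the other derivative did list an indel, which matching by position and allele does not pair. Of the 944 entries of Y negative alone, 27 had the same change in length inside a 2-allele entry of Y positive, 80 faced a different length at the same position and 11 an entry within 10 bases. For Y positive the counts were 31, 77 and 14 of 923. No entry lay within 10 bases in the other list for 826 (87.5%, 85.2 to 89.5%) and 801 (86.8%, 84.4 to 88.9%). Among these, an allele fraction of 0.5 or more was found for 78 of 826 in Y negative against 147 of 801 in Y positive, 9.44% (7.54 to 11.6%) and 18.4% (15.7 to 21.2%). A fraction below 0.25 was found for 249 and 174, 30.1% (27.0 to 33.4%) and 21.7% (18.9 to 24.7%). These intervals cover counting error over the entries of 1 library each, so they do not compare the lines. Median depth also differed, at 39 and 35 reads. So did the lists searched, with 10075 autosomal entries of any depth in Y positive and 12172 in Y negative. The part of depth or list length in this difference was not tested.

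**Figure D4:**
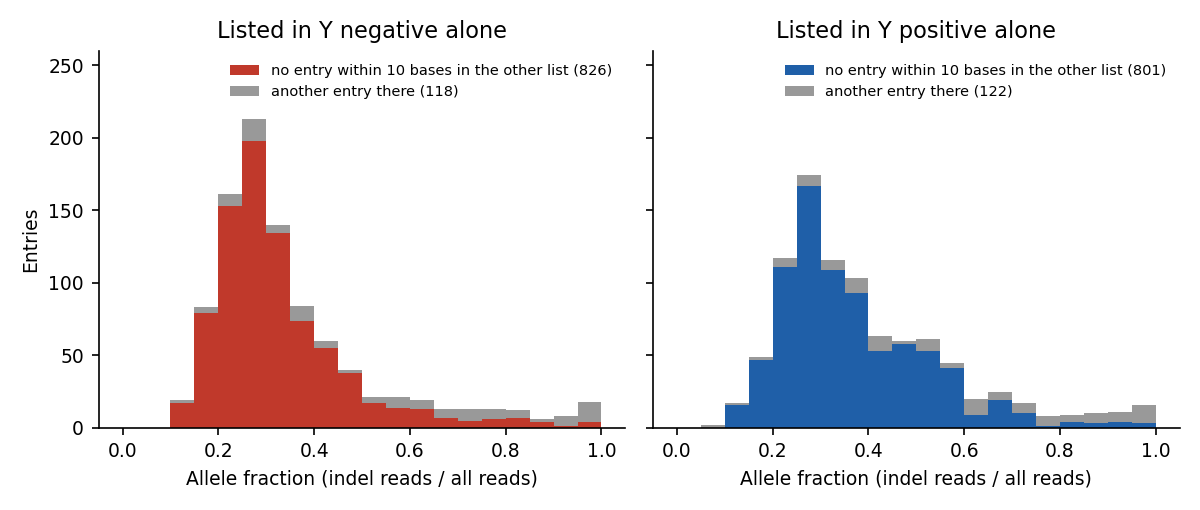
Number of autosomal entries by allele fraction (indel reads over all reads, bins of 0.05) for entries listed in Y negative alone (left, red) and in Y positive alone (right, blue), with grey for places where the other list had an entry within 10 bases. Both peak between 0.2 and 0.3, 147 of the blue entries against 78 of the red lie at 0.5 or above, and grey entries make up most of the bar nearest 1.

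The parental list held the same indel for 310 (32.8%) of the entries of Y negative alone and 355 (38.5%) of those of Y positive alone, and a different length at the same position for 43 and 56. Where parental gave it as a single allele, its fractions were like those of the derivative. The medians were 0.350 in Y negative and 0.344 in parental over 296 entries, and 0.385 in Y positive and 0.357 in parental over 339. Parental did not list the other 591 and 512, and for 549 and 470 of these the other derivative had no entry within 10 bases either.

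The entries listed alone with the highest allele fractions were mostly places where the other derivative listed 2 lengths. Among the 10 highest at 50 reads or more, this held for 6 in Y negative and for 10 in Y positive. Of the 30 homozygous entries of Y negative alone 21 faced a Y positive entry at the same position, and of the 34 of Y positive alone 25 faced a Y negative one. A 6-base deletion in a non-coding RNA intron at 10:114932309 was present in 61 of 61 reads in Y negative. Y positive had it in 58 reads beside a 9-base deletion in 8, and parental had it in 55 of 56. An AA deletion in an intron of ENSMUST00000026352 at 2:90290886 was present in 98 of 99 reads in Y positive and 107 of 109 in parental, while Y negative had it in 65 reads beside a 3-base deletion in 21. An AA deletion at 2:75951436 likewise had 67 of 67 reads in Y positive and 59 of 59 in parental, and in Y negative 32 reads beside 18 with a 3-base deletion. An A deletion at 17:57908920 had 164 of 170 reads in Y positive and, in Y negative, 107 reads beside 30 with 1 base more removed, while parental listed both lengths too, with 108 and 32 reads. At these places the derivatives shared an allele, and the additional length was listed in 1 derivative and not in the other.

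Homozygous entries with nothing within 10 bases in the other list and nothing in parental were few, 6 in Y negative and 4 in Y positive. The deepest was an A deletion in an intron of the non-coding transcript ENSMUST00000164336 at 9:121117393, carried by 64 of 64 reads in Y negative, an allele fraction of 1 (0.944 to 1) at mapping quality 60. Within 500 kb of it lay 7 shared sites, 6 of them homozygous in both derivatives. An A deletion in an intron of ENSMUST00000040960 at 9:123569449 was carried by 38 of 38 reads, a 74-base insertion at 10:115663421 by 32 of 32 and an 84-base insertion in a UTR of ENSMUST00000092351 at 7:3415365 by 28 of 28, all in Y negative. The other 2 in Y negative were a T deletion at 19:9014025 (30 of 35 reads) and an A deletion at 4:78974401 (20 of 23). The 4 in Y positive had 21 to 28 reads. They were T deletions at 10:70403656 (21 of 22 reads) and 6:103656698 (26 of 28), an AAA deletion at 14:44883768 (20 of 22) and an A deletion at 15:98359474 (19 of 21). No reads of the other derivative are known at these places.

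Coding sequence held 22 of the entries of Y negative alone, 16 frameshifts and 6 in-frame changes, and 23 of those of Y positive alone, 20 and 3, with each entry annotated by itself. Their median allele fractions were 0.208 and 0.231, lower than for the entries listed alone as a whole. They were also read more deeply, at medians of 78.5 and 64 reads against 39 and 35. The part of depth was not tested. Parental listed the same indel for 5 and 11 of them. At an allele fraction of 0.25 or more there were 9 in Y negative. The highest was the CATTGA insertion at 16:32752958 printed above, in 47 of 68 reads (mapping quality 48.4), which parental did not list. In the same transcript, ENSMUST00000096106, a 36-base insertion at 16:32753437 was in 29 of 47 reads, and in 41 of 59 in parental. That transcript also held 6 shared coding sites, with differences between -0.0255 and 0.0464. A G deletion in ENSMUST00000112291 at 6:125118174 was in 29 of 92 reads, a T deletion in ENSMUST00000025658 at 19:20863870 in 24 of 95 and an A deletion in ENSMUST00000172309 at 10:20045953 in 11 of 24, and none of these was in parental. The in-frame 15-base deletion at 1:74440447 in ENSMUST00000027367 (24 of 94 reads, and 27 of 101 in parental), an A deletion at 17:23448158 (26 of 75 and 10 of 57) and a C insertion at 4:133842501 (7 of 20 and 5 of 11) were in parental too.

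Y positive alone had 8 coding entries at or above that fraction. An A deletion in ENSMUST00000060440 at 7:111338113 was the deepest, in 88 of 219 reads, an allele fraction of 0.402 (0.336 to 0.470) at mapping quality 60, and neither other library listed it. The same held for A deletions in ENSMUST00000108061 at 11:85635526 (25 of 54 reads), ENSMUST00000097386 at 17:18211152 (22 of 59) and ENSMUST00000066317 at 7:9869725 (19 of 49, mapping quality 37.9). In parental as well were a G deletion in ENSMUST00000071565 at 9:69298663 (17 of 42 reads, and 15 of 43 in parental), a TGC deletion at 3:37024689 (20 of 60 and 13 of 74) and a CAGT insertion at 5:125484005 (6 of 22 and 4 of 20). The remaining coding entry of each list was at 7:51200694 in ENSMUST00000078897, where the lists gave the different lengths printed above. The A deletion was in 37 of 50 reads in Y positive and 30 of 47 in parental, and the AA deletion in 24 of 38 reads in Y negative, with 13, 17 and 14 reference reads in the same order. Both lengths shift the frame.

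Some entries listed alone stood close together. Clusters of entries within 50 bases of each other numbered 13 in Y negative, with 29 entries, and 18 in Y positive, with 41. Of these clusters 2 and 4 were in coding sequence. In ENSMUST00000036807 the A, AG and 11-base deletions between 8:27271296 and 8:27271342 were in 32 of 144, 36 of 174 and 36 of 185 reads of Y positive and in 26 of 150, 29 of 187 and 29 of 200 of parental. Their lengths sum to 14 bases. A frameshift insertion in the same transcript at 8:27272953 was listed in Y negative (24 of 144 reads) and parental (24 of 165) and not in Y positive. In ENSMUST00000095715 the 1-base and 23-base deletions at 10:45067675 and 10:45067677 were in 28 of 148 and 27 of 155 reads of Y positive and in 17 of 135 and 16 of 138 of parental, and each alone is a frameshift while together they remove 24 bases, a multiple of 3. In ENSMUST00000035484 both derivatives had entries of their own: single-base deletions at 9:103257520 and 9:103257522 in Y positive (30 of 236 and 30 of 237 reads), and a 2-base deletion with a 5-base insertion at 9:103257570 and 9:103257571 in Y negative (25 of 172 and 22 of 154), at mapping qualities of 48.0 to 52.5. Of the 4, none was in parental. The other coding pairs were also in neither other list: a 2-base insertion and a 2-base deletion in ENSMUST00000062451 at 7:148825726 and 7:148825731 in Y negative (65 of 471 and 51 of 462 reads), and insertions of 2 and 40 bases in ENSMUST00000031562 at 5:31503045 and 5:31503046 in Y positive (6 of 26 reads each). The net change of these pairs was 0 and 42 bases, and that of the Y negative pair at 9:103257570 was 3, all multiples of 3. The net change was not a multiple of 3 for the deletions at 8:27271296 (-14) or the Y positive pair at 9:103257520 (-2). Whether neighbours lie on the same reads was not tested.

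Of the longer insertions listed in Y negative alone, 3 lay within ENSMUST00000040915 or a non-coding transcript beside it, and none of the 3 was in parental. Insertions of 36, 74 and 84 bases lay elsewhere, as given above, and parental listed the first of them. The 3 that lay together were as follows. An 18-base insertion at a splice site at 2:69587155 was in 51 of 156 reads, a 43-base insertion at 2:69587159 in 39 of 144 and a 52-base coding insertion at 2:69581835 in 11 of 46. The nearest Y positive entry was 20478 bases from the last of these. In Y positive, a 63-base in-frame insertion in ENSMUST00000038830 at 19:21672824 was in 24 of 115 reads and a 69-base insertion in an intron of ENSMUST00000067205 at 15:90796215 in 24 of 60, and neither was in parental. Indels of 10 or more bases made up 19 of the 944 and 20 of the 923 entries listed alone.

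Entries listed alone were found on every autosome. Their share of a library's entries was lowest on chromosome 3 in both, at 15.5% (49 of 316) and 13.7% (45 of 329) for Y negative and Y positive, and was 16.1% and 15.7% on chromosome 11. It was highest on chromosome 12 in Y negative, at 41.3% (38 of 92, 31.1 to 52.1%), where Y positive had 29.1% (25 of 86, 19.8 to 39.9%). In Y positive it was highest on chromosome 5, at 33.6% (76 of 226, 27.5 to 40.2%), where Y negative had 27.0% (57 of 211, 21.1 to 33.5%). The intervals of the 2 derivatives overlapped on every chromosome. No indel of the other list lay within 1 Mb for 11 entries of Y negative alone and 1 of Y positive alone. The lists searched differed in length, the Y positive list holding 10075 autosomal entries of any depth and the Y negative list 12172. Of the 11, 9 were single-base A or T deletions, and the highest fraction was at 7:95678886, in 15 of 21 reads and in 23 of 38 in parental. The 1 in Y positive was an A deletion at 3:124115493 in an intron of ENSMUST00000029598, in 34 of 71 reads.

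**Figure D5:**
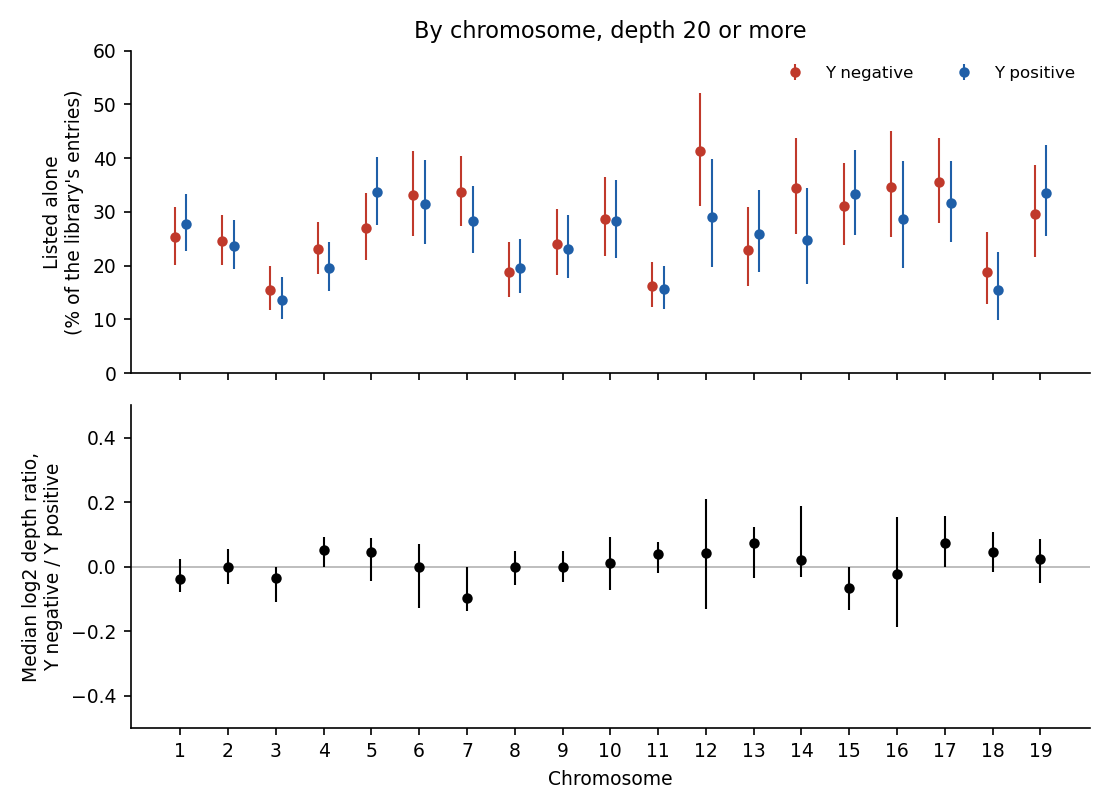
By chromosome, the share of each library's entries with 1 alternative allele and at least 20 reads that the other derivative did not list, with exact 95% intervals (upper panel), and the median log2 depth ratio of Y negative over Y positive at shared sites, relative to the autosomal median, with exact order-statistic intervals (lower panel). The shares run from 13.7% to 41.3% with overlapping intervals on each chromosome, and the depth medians from -0.10 to 0.07.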

How the data were processed

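Genomic DNA of 3 MB49 lines was sequenced after exome capture, 1 library a line. The authors deposited 1 annotated indel list per library. The submitters' processing notes name BWA and Picard and the builds mm9 and mm10, and the variant caller is not given in the sources used here. The deposited values are counts of reads per allele as whole numbers, with genotype and mapping quality beside them. A deposited quality score per entry, set by the authors' caller, was not used as a filter. Lists with filters and depth limits of their own shape what could be compared. Gene models are Ensembl transcript identifiers, 21975 of them, of which 0 matched the RefSeq gene table, so no gene symbols are given.

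Entries were matched on chromosome, start, reference and alternative base. Sites with 1 alternative allele and at least 20 reads in both derivatives were compared by two-sided Fisher exact tests with Benjamini-Hochberg adjustment (scipy 1.17.1, Python 3.11.15) and tested on simulated data. Shares carry exact 95% Clopper-Pearson intervals, and medians exact order-statistic intervals. For entries listed alone, the other lists were searched by position and change in length. Alternatives were depth minimums of 10, 30 and 50, Holm adjustment, omission of single-base A or T indels, and looser matching. Indels were named by rule: sites past the test, the 10 largest differences short of it, genotype differences of 0.3 or more, coding entries, and the deepest, longest, highest and most isolated entries listed alone. The 11:50862212 pair and the chromosome 9 neighbourhood were chosen after their values were seen. The members, lists and rules were chosen with earlier results of these data known.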

Additional observations from a re-analysis of the deposited data

How the results depend on the processing

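No paired analysis was possible because each line had 1 library. The 20 sites past the read test became 22, 19 and 17 at depth minimums of 10, 30 and 50 reads (20, 19 and 15 of the same sites), 12 after Holm adjustment, and 3 of 1334 without single-base A or T indels. In that last setting 3 of the 6 sites of other kinds no longer passed, at an adjusted p of 0.0615 (Fisher exact test): their unadjusted p did not change, but the 14 A or T sites that had ranked with them were no longer in the adjustment. Adjustment over the 2645 shared sites of all chromosomes kept the same 20, and mapping quality of 60 in both kept 15 of 2061, both chosen after seeing the data. The 147 sites with a difference of 0.2 became 291, 75 and 28 at depth minimums of 10, 30 and 50, which were 8.24%, 3.88% and 2.41% of the sites left, and 54 without single-base A or T indels. The share with the same genotype became 95.7%, 98.2% and 98.6% at those depths. The median log2 depth ratio became -0.0019, 0.024 and 0.044, and 0.023 without single-base A or T indels. Entries listed alone became 1506, 638 and 329 in Y negative and 1588, 581 and 257 in Y positive at those depths, 443 and 449 without single-base A or T indels, 826 and 801 when any entry within 10 bases counted as listed, and 1049 and 1025 with 2-allele entries kept. So the number of large differences and of entries listed alone depended on depth, and Y negative had more entries listed alone than Y positive at minimums of 20, 30 and 50 and fewer at 10. Depth also limits the read test, which was run at a median of 49 and 51 reads.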

Other observations

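Positions with 2 alternative alleles were outside the comparison. At 20 reads or more Y negative had 124 of them and Y positive 126, and 59 had the same pair of alleles in both, 38 of them in parental too. The reads carrying the first allele, as a share of the reads carrying either, differed by 0.0638 at the median, and by 0.2 or more at 7 positions, 3 higher and 4 lower in Y negative. The largest difference was in an intron of ENSMUST00000014673 at 5:3673202, where Y negative had 29 reads with a 2-base deletion and 54 with a 1-base deletion, and Y positive 57 and 21. At 7:121849744, in an exon of a non-coding RNA, the same pair of lengths had 22 and 27 reads in Y negative and 23 and 8 in Y positive. At 6:108791729, in an intron of ENSMUST00000089162, a 4-base and a 2-base deletion had 14 and 15 reads in Y negative and 7 and 24 in Y positive. No test was run on these positions.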
